A study of Mus musculus with 30 samples.

Results

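Embryoid bodies (EBs) of mouse embryonic stem (ES) cells were compared at day 4 and day 3 of differentiation, across all genes of an RNA-seq time course. The 4 libraries used, 2 from day 4 and 2 from day 3, were chosen by the day in their labels and are 4 of the 30 samples of the series. All 4 came from E14Tg2a.IV, a wild-type ES cell line of the 129/Ola background, which was kept on gelatin in medium with serum and LIF before EBs were formed. The remaining 6 libraries of the same line, from ES cells (day 0) and EBs at day 1 and day 2, entered the fit as 2 libraries a day. The other 4 RNA libraries of the series came from other lines, its remaining 16 samples are ChIP-seq and input libraries, and neither were analysed here. The protocols name Activin A and the Activin receptor inhibitor SB431542, but tie them to the ChIP-seq cells, and do not say whether the EBs of the time course received either. The line is a single one, and each library pools the cells of many EBs. Nothing in the labels states that the replicates of a day were cultured apart, and p-values therefore reflect only the spread between these samples.

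Left without LIF, ES cells in suspended aggregates pass through a state like the epiblast of the early embryo and then switch on the genes of gastrulation. In the embryo, epiblast cells enter the primitive streak under Wnt, Nodal and BMP signals, lose their epithelial contacts and leave it as mesoderm or definitive endoderm. Mesoderm then divides into paraxial, lateral, cardiac and extraembryonic parts, the last of which gives the first blood and vessels. EBs hold a mixture of these cells, and in such bulk RNA a change in the number of cells of a type and a change in RNA per cell cannot be told apart.

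The values are normalised reads, that is the reads of a gene divided by a size factor for its library. Depth was 35214736 and 27476591 reads in the day 4 libraries, against 30878512 and 20104644 in the day 3 libraries. The Spearman correlation between the replicates, across genes, was 0.994 at day 4 and 0.990 at day 3, and 753 genes at day 4 and 1168 at day 3 differed over 2-fold between replicates. The day 0 libraries agreed least of the 5 days, with a correlation of 0.962 and 3945 genes over 2-fold apart. Their spread enters the error of the fit, and so every p-value from it. On the first principal component of all 10 libraries, which held 53.8% of the variance, the day 4 libraries lay at 97.2 and 96.7, against 36.7 and 66.8 for the day 3 libraries, so day 3 was the less uniform of the 2 days.

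Of 15841 genes tested, 366 were higher at day 4 (2.31%) and 98 were lower (0.619%), 2.93% in either direction, by limma with a Benjamini-Hochberg adjusted p under 0.05 (two-sided). Without the day 0 libraries in the fit, 803 were higher and 504 lower. With all 10 libraries, the median log2 fold change over all tested genes was -0.00139. The change exceeded 2-fold in 354 of the 366 rises (2.23% of all genes) and 82 of the 98 falls (0.518%). The rises were steep, with a median of 2.82 on the log2 scale (7.08-fold), and 163 of them exceeded 8-fold. The falls were shallow, with a median of -1.54, and 20 exceeded 4-fold. In 346 of the 366 rises day 4 had the highest mean of the 5 days, and 125 had a mean under 1 CPM (a gene's reads scaled to the depth of its library) at day 3. Neither day's values overlapped the other's in any of the 464 called genes, but without a test 27.7% of all genes lay wholly higher and 27.4% wholly lower at day 4. With 1 library left out, the counts fell to 100 rises and 13 falls without day 4 replicate 1, to 49 and 2 without day 4 replicate 2, to 57 and 2 without day 3 replicate 1, and to 212 and 29 without day 3 replicate 2.

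**Figure D1:**
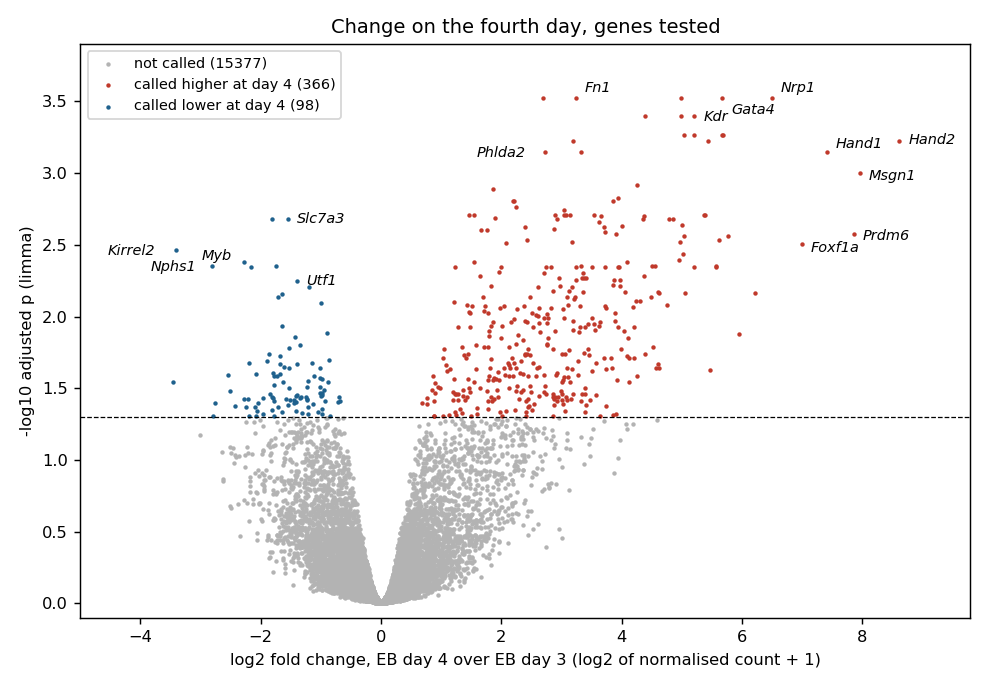
Log2 fold change of each of the 15841 tested genes (day 4 over day 3, horizontal) against the minus log10 of its adjusted p from limma (vertical). The 366 rises, in red, reach much further from 0 than the 98 falls, in blue.

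The largest rises among genes with a mean of at least 10 CPM on one of the days came in genes nearly silent at day 3. Hand2, a bHLH factor of lateral mesoderm and heart, had 228 and 674 normalised reads in the day 4 libraries, against 0 in both day 3 libraries, a rise of at least 125-fold when day 3 is set at 3 reads per library (adjusted p = 0.000596). Msgn1, a bHLH factor of presomitic mesoderm, had 784 and 893 at day 4, against 1.91 and 2.91 at day 3 (log2 fold change 7.96 ± 0.77, SE; adjusted p = 0.000991). Prdm6, a repressor known from smooth muscle precursors, had 1193 and 1941 at day 4, against 2.86 and 10.2 at day 3 (log2 fold change 7.86 ± 0.96, adjusted p = 0.00266). In each of these genes both day 4 libraries lay far above both day 3 libraries.

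Next by size came Hand1 and Foxf1a, described with lateral mesoderm, and Nrp1, Unc5c and Klhl6. Nrp1, a co-receptor for VEGF and semaphorins, had 1625 and 2667 normalised reads at day 4, against 25.7 and 18.9 at day 3, and a log2 fold change of 6.49 ± 0.48 (adjusted p = 0.000299). Unc5c, a netrin receptor, had 306 and 1438 at day 4, against 5.72 and 16.0 at day 3 (log2 fold change 5.96 ± 1.01, adjusted p = 0.0132), with one day 4 library several times the other. Klhl6, an adaptor protein known from B cells, had 1503 and 1596 at day 4, against 18.1 and 46.6 at day 3 (log2 fold change 5.68 ± 0.48, adjusted p = 0.000543). Hand2, Msgn1, Nrp1 and Klhl6 kept their calls with each of the 4 libraries left out in turn. Prdm6 and Unc5c missed the threshold without day 4 replicate 2 or without day 3 replicate 1 (adjusted p 0.0548 to 0.178). Besides Hand2, 6 called genes had no read at day 3, among them Cd93, a receptor of vessel and blood cells, with 44.5 and 48.9 at day 4 and a rise of at least 12.9-fold, and the coagulation genes F10 and Proc. F10 had 16.5 and 16.3 at day 4, a rise of at least 4.54-fold. Proc had only 4.12 and 6.52, a rise of at least 1.47-fold. Pilrb1 and Pilrb2, which also had no read at day 3, are closely related copies whose reads may be split between them.

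The primitive streak factors T and Eomes did not pass the test, while others of their list rose. Of 13 tested, 5 rose (Mixl1, Evx1, Cdx2, Cdx4 and Lhx1) and 8 did not pass, with a median log2 fold change of 1.54 against -0.00139 over all genes. From day 2 to day 3, limma had already called rises in T (log2 fold change 5.23), Mixl1 (4.87), Lhx1 (5.85) and Evx1 (3.95). Their adjusted p on that step ran from 0.00033 to 0.031. Eomes (2.12) and Cdx2 (1.14) did not pass on it. T, the brachyury factor that defines the streak, had 21465 and 16448 normalised reads at day 4, against 5034 and 8310.1 at day 3, and its log2 fold change of 1.54 ± 0.40 did not pass (adjusted p = 0.0795). Eomes, the T-box factor of early mesendoderm, had 15236 and 14425 at day 4, against 6645 and 8719 at day 3 (log2 fold change 0.96 ± 0.39, adjusted p = 0.272). In both T and Eomes the day 4 values lay above those of day 3 without overlap. With only the libraries of day 4 and day 3, or without day 0, limma called Eomes higher.

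Mixl1, a homeobox factor of mesendoderm, had 6108 and 6657 normalised reads at day 4, against 1345 and 1960.3 at day 3, and rose by 1.97 ± 0.31 on the log2 scale (adjusted p = 0.0087). Evx1, a homeobox factor there, had 4267 and 4806 at day 4, against 347 and 619 at day 3 (log2 fold change 3.29 ± 0.56, adjusted p = 0.0128). Cdx2, which sets posterior Hox expression, had 975 and 1879 at day 4, against 87.7 and 159 at day 3 (log2 fold change 3.51 ± 0.48, adjusted p = 0.00453). Its relative Cdx4 had 23.9 and 68.5 at day 4, against 0 and 2.91 at day 3 (log2 fold change 4.39, adjusted p = 0.0182). Cdx4 missed the threshold without either day 4 library or without day 3 replicate 1.

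Among factors of the anterior streak, Lhx1, a LIM homeobox gene needed for the head organiser, had 6558 and 5421 normalised reads at day 4, against 313 and 1216 at day 3 (log2 fold change 3.27 ± 0.64, adjusted p = 0.0254). Its promoter window shares 225 bases with that of 1500016L03Rik on the other strand, which was also called. Gsc, the goosecoid factor of the organiser, had 1273 and 1138 at day 4, against 510.2 and 647 at day 3, and did not pass (log2 fold change 1.07, adjusted p = 0.574). Fgf8, the streak's FGF ligand, stood at 5758 and 5853 at day 4, against 4484 and 4449 at day 3, the smallest difference of the list (log2 fold change 0.38, adjusted p = 0.939). Mixl1, Evx1 and Lhx1 missed the threshold without either day 4 library or without day 3 replicate 1 (adjusted p 0.0912 to 0.222). Cdx2 missed the threshold without day 4 replicate 2 or without day 3 replicate 1 (adjusted p 0.0792 to 0.0904). The list held 1, 0, 0 and 5 rises without day 4 replicate 1, day 4 replicate 2, day 3 replicate 1 and day 3 replicate 2, in that order.

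**Figure D2:**
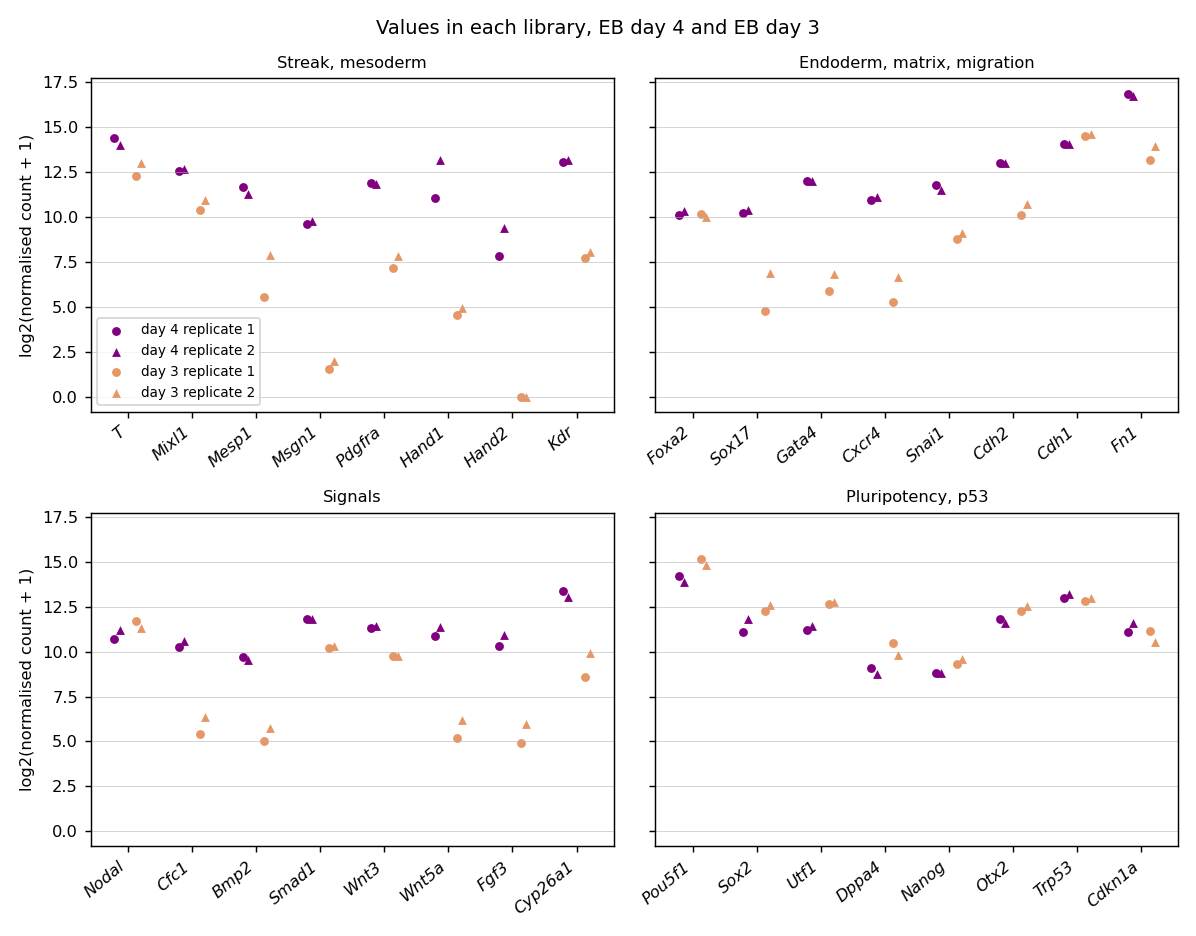
Log2 of the normalised reads plus 1 (vertical) of 32 genes in each library, with the 2 day 4 libraries left in purple and the 2 day 3 libraries right in orange, circles for replicate 1 and triangles for replicate 2. Hand2 and Msgn1 show the widest gap between days, while Foxa2 and Trp53 stand at nearly the same height on both.

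Genes of nascent and paraxial mesoderm rose in the greater part of their list, 11 of 20 tested, with a median log2 fold change of 2.03. Mesp1, the bHLH factor of the earliest cardiac and head mesoderm, had 3223 and 2456 normalised reads at day 4, against 45.8 and 232 at day 3 (log2 fold change 4.75 ± 0.73, adjusted p = 0.00836). Its close relative Mesp2, which sets segment borders in presomitic mesoderm, had 521 and 249 at day 4, against 50.5 and 77.2 at day 3 (log2 fold change 2.51 ± 0.56, adjusted p = 0.0448). The groups did not overlap in either gene, and the day 3 libraries differed several-fold from each other in Mesp1.

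Mesp1 and Mesp2 are neighbours on chromosome 7, and their promoters are shown because the pair rose together. Each window runs from 250 bases before to 50 bases after the start, read 5′ to 3′ on the gene's strand, from RefSeq on build GRCm38.p6; the deposited values were made on mm9. The windows are chr7:79793541-79793840 (minus strand) for Mesp1 and chr7:79810477-79810776 (plus strand) for Mesp2. Capitals mark the T-box motif AGGTGTG, here on the opposite strand as CACACCT, and in Mesp1 also the Tcf/Lef motif CTTTGAT.
Mesp1: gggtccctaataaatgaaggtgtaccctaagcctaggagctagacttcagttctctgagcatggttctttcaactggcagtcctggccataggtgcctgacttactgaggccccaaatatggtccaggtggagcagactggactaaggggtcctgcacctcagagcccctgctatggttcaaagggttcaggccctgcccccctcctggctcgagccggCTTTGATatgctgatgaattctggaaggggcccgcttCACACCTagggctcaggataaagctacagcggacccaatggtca
Mesp2: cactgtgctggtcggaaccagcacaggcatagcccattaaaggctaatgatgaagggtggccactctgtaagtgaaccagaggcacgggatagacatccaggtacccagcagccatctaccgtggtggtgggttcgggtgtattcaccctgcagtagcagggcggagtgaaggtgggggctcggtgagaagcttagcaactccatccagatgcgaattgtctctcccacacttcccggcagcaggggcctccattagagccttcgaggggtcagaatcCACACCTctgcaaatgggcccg
The T-box letters begin 6 bases after the Mesp1 start and 28 bases after the Mesp2 start, and the Tcf/Lef letters begin 31 bases before the Mesp1 start.

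Further along the paraxial path, Tbx6, a T-box factor that commits cells to this mesoderm, had 779 and 649 normalised reads at day 4, against 52.5 and 93.2 at day 3 (log2 fold change 3.33 ± 0.44, adjusted p = 0.00445). Dll3, a Notch ligand of the segmentation clock, had 3159 and 2881 at day 4, against 562 and 775 at day 3 (log2 fold change 2.19 ± 0.23, adjusted p = 0.00155), and Lfng, the Notch-modifying fringe enzyme, had 752 and 636 at day 4, against 131 and 271 at day 3 (log2 fold change 1.87, adjusted p = 0.027). Pdgfra, a receptor that marks mesoderm as it leaves the streak, had 3749.8 and 3709 at day 4, against 141 and 224 at day 3 (log2 fold change 4.38 ± 0.35, adjusted p = 0.000398). All of these separated the days without overlap.

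Rspo3, a secreted enhancer of Wnt signals, had 2336 and 2829 normalised reads at day 4, against 134 and 269 at day 3 (log2 fold change 3.75, adjusted p = 0.00871), and Foxc1, a forkhead factor of paraxial mesoderm, had 296 and 269 at day 4, against 12.4 and 42.2 at day 3 (log2 fold change 3.56). Not every member of the list rose. Tcf15, the paraxis factor of the somite epithelium, had 234 and 230.5 at day 4, against 610.3 and 486 at day 3 (log2 fold change -1.23, adjusted p = 0.0639, not passed), and Ripply1, a repressor at the segment border, had 49.5 and 30.4 at day 4, against 111 and 118 at day 3 (log2 fold change -1.53, adjusted p = 0.0787, not passed). Msgn1, Dll3 and Pdgfra kept their calls with each of the 4 libraries left out in turn. Mesp2 missed the threshold whichever of the 4 libraries was left out (adjusted p 0.122 to 0.344). Mesp1, Tbx6, Lfng, Rspo3 and Foxc1 missed the threshold without either day 4 library or without day 3 replicate 1 (adjusted p 0.0599 to 0.235). Over the same 4 omissions, in the order given for the streak list, the paraxial list held 4, 3, 3 and 9 rises.

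Lateral and extraembryonic mesoderm had the highest median of the 36 gene lists, a log2 fold change of 3.58, and 12 of its 16 tested members rose. Hand1, a bHLH factor of extraembryonic and lateral mesoderm, had 2145 and 9272 normalised reads at day 4, against 21.9 and 29.1 at day 3 (log2 fold change 7.41 ± 0.69, adjusted p = 0.000709). Foxf1a, a forkhead factor of the same layers, had 259.8 and 1011 at day 4, against 0.954 and 7.28 at day 3 (log2 fold change 7.00 ± 0.88, adjusted p = 0.00314). Msx2, a homeobox target of BMP, had 1959 and 4089 at day 4, against 37.2 and 80.1 at day 3 (log2 fold change 5.67 ± 0.49, adjusted p = 0.000543). In these 3 genes, as in Hand2, day 4 replicate 2 was over 2-fold above day 4 replicate 1, and both stood far above day 3.

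Further lateral genes rose as well. Isl1, a LIM factor of cardiac progenitors, had 419.8 and 395 normalised reads at day 4, against 21.0 and 35.0 at day 3 (log2 fold change 3.86 ± 0.40, adjusted p = 0.00155), and Wnt2, a ligand of cardiac mesoderm, had 179.8 and 179 at day 4, against 4.77 and 4.37 at day 3 (log2 fold change 5.02, adjusted p = 0.00366). Tbx20, a T-box repressor of the early heart, had 685 and 1427 at day 4, against 82.0 and 129.6 at day 3 (log2 fold change 3.25, adjusted p = 0.00554). Tbx3, a T-box factor of naive ES cells as well as of mesoderm, had 3348 and 5440.1 at day 4, against 313 and 256 at day 3 (log2 fold change 3.91 ± 0.47, adjusted p = 0.00265), and its mean over days 0 to 4 ran 3769, 721, 374, 285 and 4394. Hand1, Msx2 and Isl1 kept their calls with each of the 4 libraries left out in turn. Foxf1a, Wnt2 and Tbx20 missed the threshold without day 4 replicate 2 or without day 3 replicate 1 (adjusted p 0.0517 to 0.102). Tbx3 missed the threshold without day 4 replicate 2 (adjusted p 0.0541). The list held 11, 4, 5 and 9 rises over the same 4 omissions.

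Hand1 and Gata3 also mark trophoblast, so that list is given beside these values. Of its 8 genes 4 were tested and 1, Gata3, rose by limma. Log2 fold changes in the list ran from -1.28 to 4.58, and the gene at 4.58 was not called. At an unadjusted p under 0.05, 2 of the list were higher and 1 lower. By edgeR 1 was higher and 0 lower, and by DESeq2 2 were higher and 0 lower. The list summed to 560 and 571 normalised reads at day 4, against 231 and 285 at day 3, and the placental genes Tpbpa and Prl3d1 had no read in any of the 4 libraries. Gata3, a zinc finger factor of trophoblast and surface ectoderm, had 407 and 378 at day 4, against 13.4 and 35.0 at day 3 (log2 fold change 4.11, adjusted p = 0.0142), and shares its locus with 4930412O13Rik. Gata3 missed the threshold without either day 4 library or without day 3 replicate 1 (adjusted p 0.107 to 0.172).

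Of 18 blood and vessel precursor genes tested, 7 rose, with a median log2 fold change of 1.48. Kdr, the VEGF receptor of the common precursor, had 8499 and 9201 normalised reads at day 4, against 209.8 and 269 at day 3 (log2 fold change 5.21 ± 0.42, adjusted p = 0.000398). Gata2, a zinc finger factor of blood progenitors, had 545 and 738 at day 4, against 41.0 and 69.9 at day 3 (log2 fold change 3.54 ± 0.39, adjusted p = 0.00195). Cdh5, the cadherin of endothelium, had 88.2 and 77.2 at day 4, against 3.81 and 7.28 at day 3 (log2 fold change 3.73 ± 0.51, adjusted p = 0.00453). Each gene was clearly separated between the days.

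Runx1, needed for definitive blood, had 248 and 522 normalised reads at day 4, against 31.5 and 53.9 at day 3 (log2 fold change 3.10), and Lmo2, a partner of Tal1, had 841 and 727 at day 4, against 184 and 172 at day 3 (log2 fold change 2.13). Fli1 and Erg, ETS factors of endothelium, were the other genes of the list that rose. Erg (limma adjusted p = 0.0453) missed the threshold with DESeq2, and also whichever of the 4 libraries was left out. Tal1 and Etv2 did not pass by limma over all 10 libraries or by edgeR. DESeq2 called Etv2, as did limma with only the libraries of day 4 and day 3, or without day 0. Tal1, the bHLH factor of blood commitment, had 976 and 1060.0 at day 4, against 171 and 162 at day 3 (log2 fold change 2.61 ± 1.07, adjusted p = 0.28), and Etv2, the ETS factor that starts the endothelial and blood programme, had 1372 and 877 at day 4, against 517 and 371 at day 3 (log2 fold change 1.32 ± 0.40, adjusted p = 0.125). In both genes the days did not overlap. Pecam1, an adhesion molecule of endothelium and of ES cells, had 91.5 and 172 at day 4, against 254 and 170.4 at day 3, and these overlapped. Kdr and Gata2 kept their calls with each of the 4 libraries left out in turn. Lmo2 missed the threshold whichever of the 4 libraries was left out (adjusted p 0.0954 to 0.156). Cdh5 missed the threshold without either day 4 library or without day 3 replicate 1 (adjusted p 0.0599 to 0.0727). Runx1 missed the threshold without day 4 replicate 2 or without day 3 replicate 1 (adjusted p 0.108 to 0.124). The list held 3, 2, 2 and 5 rises over the same 4 omissions.

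Of 11 cardiac genes tested, 3 rose, with a median log2 fold change of 1.81. Myl7, the atrial myosin light chain, had 571 and 424 normalised reads at day 4, against 72.5 and 59.7 at day 3 (log2 fold change 2.88 ± 0.34, adjusted p = 0.00244). Tbx5, a T-box factor of the heart field, had 15.7 and 26.1 at day 4, against 0.954 and 0 at day 3 (log2 fold change 3.93, adjusted p = 0.0276), and the third was Tbx20. Nkx2-5, the homeobox factor of committed heart cells, had 37.1 and 38.1 at day 4, against 12.4 and 4.37 at day 3, and did not pass (log2 fold change 2.19, adjusted p = 0.0787). The days did not overlap in Nkx2-5, but its values were low. Myl7 kept its call with each of the 4 libraries left out in turn. Tbx5 missed the threshold whichever of the 4 libraries was left out (adjusted p 0.113 to 0.281). Tbx5 also missed it with edgeR on the read counts. Over the same omissions the list held 2, 1, 1 and 2 rises.

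Definitive endoderm genes were uneven: 6 of 13 tested rose, with a median log2 fold change of 1.95. Sox17, the HMG factor of endoderm, had 1217 and 1346 normalised reads at day 4, against 25.7 and 119 at day 3 (log2 fold change 4.50 ± 0.67, adjusted p = 0.00734). Foxa2, the forkhead factor of endoderm and axial mesoderm, had 1126 and 1296 at day 4, against 1129 and 1021 at day 3 (log2 fold change 0.17 ± 0.47, adjusted p = 0.94), and its days overlapped. From day 2 to day 3 Foxa2 had risen by 3.33 on the log2 scale (limma adjusted p = 0.031). Cxcr4, a chemokine receptor used to sort definitive endoderm and also present on mesoderm, had 1969 and 2206 at day 4, against 38.1 and 102 at day 3 (log2 fold change 5.04 ± 0.43, adjusted p = 0.000543).

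Zinc finger factors shared between endoderm and cardiac mesoderm rose as well. Gata4 had 4193 and 4189 normalised reads at day 4, against 58.2 and 114 at day 3, a log2 fold change of 5.67 ± 0.36 (adjusted p = 0.000299), and its day 4 libraries were nearly equal. Gata6 had 2087 and 2043 at day 4, against 109.7 and 338 at day 3 (log2 fold change 3.42, adjusted p = 0.00541). Hhex, a homeobox factor of anterior endoderm and blood vessel precursors, had 557 and 565 at day 4, against 129.7 and 160.2 at day 3 (log2 fold change 1.95, adjusted p = 0.00492). Cer1, an inhibitor of Nodal, BMP and Wnt made by anterior endoderm, had 1453 and 997 at day 4, against 63.9 and 446 at day 3, and did not pass (log2 fold change 2.82, adjusted p = 0.144) with day 3 libraries that lay several-fold apart. DESeq2 called Cer1 higher. Cxcr4 and Gata4 kept their calls with each of the 4 libraries left out in turn. Sox17 and Hhex missed the threshold without either day 4 library or without day 3 replicate 1 (adjusted p 0.0644 to 0.103). Gata6 missed the threshold without day 4 replicate 1 or without day 4 replicate 2 (adjusted p 0.0644 to 0.0876). The list held 1, 1, 2 and 4 rises over the same omissions.

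Visceral and parietal endoderm, the extraembryonic layers that share Gata4, Gata6 and Sox17 with the definitive kind, had 4 rises of 13 tested and a median log2 fold change of 0.62. These were Gata4, Sox7, Lama1 and Hnf4a. Sox7 had 148 and 200.0 normalised reads at day 4, against 15.3 and 23.3 at day 3 (log2 fold change 3.12, adjusted p = 0.0172), and Hnf4a, a nuclear receptor of visceral endoderm, had 48.7 and 48.9 at day 4, against 8.58 and 8.74 at day 3 (log2 fold change 2.37, adjusted p = 0.0323). Afp, the secreted protein that defines mature visceral endoderm, had 9.90 and 9.78 at day 4, against 0.954 and 1.46 at day 3, and Ttr, Apoa4 and Fgb were too low to test. The list summed to 27051 and 29957 at day 4, against 16655 and 27783 at day 3, and its part in the endoderm results was not tested. Sox7 and Hnf4a missed the threshold whichever of the 4 libraries was left out (adjusted p 0.0604 to 0.266). The list held 1, 1, 1 and 2 rises over the same omissions.

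The organiser and axial list had 4 rises of 12 tested, Lhx1 and 3 secreted inhibitors, with a median log2 fold change of 2.35. Dkk1, an inhibitor of Wnt signals, had 744 and 1372 normalised reads at day 4, against 20.0 and 90.3 at day 3 (log2 fold change 4.53, adjusted p = 0.0164). Nog, which binds BMPs, had 95.7 and 175 at day 4, against 12.4 and 18.9 at day 3 (log2 fold change 3.00, adjusted p = 0.0328), and Frzb, which binds Wnts, had 2205 and 2051 at day 4, against 165 and 514 at day 3 (log2 fold change 2.86, adjusted p = 0.0363). Nog missed the threshold whichever of the 4 libraries was left out (adjusted p 0.0991 to 0.336). Dkk1 and Frzb missed the threshold without either day 4 library or without day 3 replicate 1 (adjusted p 0.0776 to 0.32). The list held 0, 0, 0 and 3 rises over the same omissions.

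**Figure D3:**
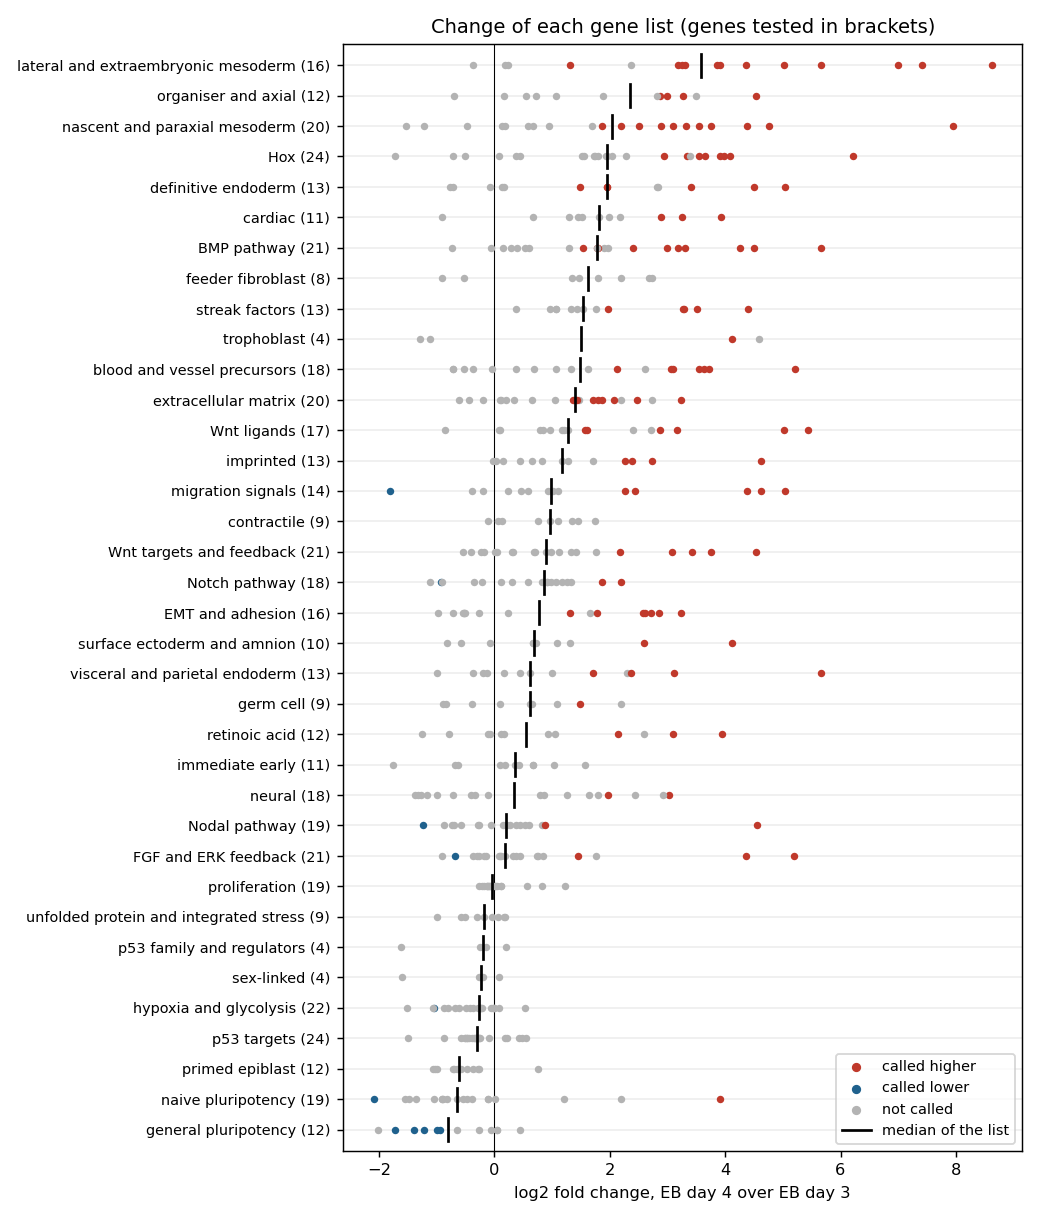
Log2 fold change (day 4 over day 3, horizontal) of the tested members of 36 gene lists, sorted by median, with rises in red, falls in blue, members not called in grey and each median as a black bar. Lateral and extraembryonic mesoderm has the highest median, 3.58, and general pluripotency the lowest, -0.80.

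Among signalling pathways, BMP genes rose most widely, 10 of 21 tested with a median log2 fold change of 1.78, and they rose at several levels of the pathway. Of the ligands, Bmp2 had 845 and 750.1 normalised reads at day 4, against 31.5 and 52.4 at day 3 (log2 fold change 4.26 ± 0.42, adjusted p = 0.00121). Bmp4 had 1129.8 and 2558 at day 4, against 151 and 230.1 at day 3 (log2 fold change 3.18, adjusted p = 0.0124), and Bmp5 had 109.7 and 182 at day 4, against 4.77 and 5.83 at day 3 (log2 fold change 4.50, adjusted p = 0.00442). The signal transducer Smad1 had 3549 and 3601 at day 4, against 1190.2 and 1266 at day 3 (log2 fold change 1.54 ± 0.17, adjusted p = 0.00195). Both libraries of a day were close in Smad1 and the days stood apart.

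Targets and inhibitors of BMP signals moved in the same direction as the ligands. Id1, a target gene that blocks bHLH factors, had 4219.9 and 3722 normalised reads at day 4, against 1090.0 and 1187 at day 3 (log2 fold change 1.80, adjusted p = 0.0136). Smad6, an inhibitory Smad, had 1294 and 2312 at day 4, against 254 and 422 at day 3 (log2 fold change 2.40, adjusted p = 0.0107), and Bambi, a decoy receptor, had 1134 and 1999 at day 4, against 373 and 514 at day 3 (log2 fold change 1.78, adjusted p = 0.0276). The receptor gene Bmpr1a had 5022 and 5655 at day 4, against 4777 and 4822 at day 3, and did not pass (log2 fold change 0.15, adjusted p = 0.842). Bmp2 and Smad1 kept their calls with each of the 4 libraries left out in turn. Id1 and Bambi missed the threshold whichever of the 4 libraries was left out (adjusted p 0.0583 to 0.319). Bmp4 missed the threshold without day 4 replicate 2 or without day 3 replicate 1 or without day 3 replicate 2 (adjusted p 0.0514 to 0.167). Bmp5 and Smad6 missed the threshold without day 4 replicate 2 or without day 3 replicate 1 (adjusted p 0.066 to 0.16). The list held 7, 3, 3 and 5 rises over the same omissions.

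Nodal pathway genes moved little as a group, with 2 rises and 1 fall among 19 tested and a median log2 fold change of 0.20. Nodal itself had 1667 and 2334 normalised reads at day 4, against 3378 and 2597 at day 3, and did not pass (log2 fold change -0.59, adjusted p = 0.407). Cfc1, the Cryptic co-receptor used in mesoderm, had 1222 and 1563 at day 4, against 41.0 and 81.6 at day 3 (log2 fold change 4.55 ± 0.61, adjusted p = 0.00442). Foxh1, the forkhead partner of Smad2, had 5599 and 6071 at day 4, against 2979 and 3364 at day 3 (log2 fold change 0.88, adjusted p = 0.0389). Gdf3, a ligand of ES cells, fell, with 143 and 229 at day 4, against 476 and 386 at day 3 (log2 fold change -1.24, adjusted p = 0.0366).

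Lefty1, a feedback inhibitor of Nodal, varied several-fold between the replicates of day 3. It had 771 and 2025 normalised reads at day 4, against 3672 and 1121 at day 3, and overlapped between the days (log2 fold change -0.70, adjusted p = 0.822). Its relative Lefty2 had 2895 and 3046 at day 4, against 2111 and 1335 at day 3, without overlap, and did not pass (log2 fold change 0.82, adjusted p = 0.556). Foxh1 and Gdf3 missed the threshold whichever of the 4 libraries was left out (adjusted p 0.0744 to 0.35). Cfc1 missed the threshold without day 4 replicate 2 or without day 3 replicate 1 (adjusted p 0.0772 to 0.0786). Over the same omissions the list held 1, 0, 0 and 1 rises.

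Of 17 Wnt ligands tested, 6 rose, with a median log2 fold change of 1.28. Wnt5a, a ligand of axis elongation that acts mostly outside the beta-catenin path, had 1891 and 2667 normalised reads at day 4, against 36.2 and 71.4 at day 3 (log2 fold change 5.44 ± 0.48, adjusted p = 0.000596). Wnt2b had 582 and 369.6 at day 4, against 53.4 and 48.1 at day 3 (log2 fold change 3.17, adjusted p = 0.003). Wnt3, the ligand that starts the streak, had 2530.1 and 2706 at day 4, against 858 and 862 at day 3 (log2 fold change 1.60, adjusted p = 0.0477). The remaining 3 that rose were Wnt2, Wnt3a (log2 fold change 2.86) and Wnt5b (log2 fold change 1.57).

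Wnt8a, a ligand of the early streak, had 1402 and 1569 normalised reads at day 4, against 2735 and 2646 at day 3, and did not pass (log2 fold change -0.86, adjusted p = 0.345). Wnt targets and feedback genes had 5 rises of 21 tested and a median log2 fold change of 0.89. Apcdd1, a membrane inhibitor of Wnt, had 1116 and 2296 at day 4, against 181 and 198 at day 3 (log2 fold change 3.07 ± 0.34, adjusted p = 0.00195), and Lgr5, a receptor for R-spondins, had 319 and 597 at day 4, against 32.4 and 48.1 at day 3 (log2 fold change 3.43, adjusted p = 0.0112). Nkd1, a cytoplasmic inhibitor, had 1376 and 2515 at day 4, against 339 and 494 at day 3 (log2 fold change 2.18, adjusted p = 0.0195). Axin2, the general target of beta-catenin, had 3522 and 5277 at day 4, against 2432 and 2852 at day 3, and did not pass although the days did not overlap (log2 fold change 0.71, adjusted p = 0.119). DESeq2 called Axin2 higher. Wnt5a and Apcdd1 kept their calls with each of the 4 libraries left out in turn. Wnt3, Wnt5b and Nkd1 missed the threshold whichever of the 4 libraries was left out (adjusted p 0.0525 to 0.354). Wnt3a and Lgr5 missed the threshold without either day 4 library or without day 3 replicate 1 (adjusted p 0.0545 to 0.376). Wnt2b missed the threshold without day 4 replicate 1 (adjusted p 0.0526). With the same libraries left out the ligands held 2, 2, 2 and 4 rises and the targets 1, 1, 1 and 4.

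In the FGF and ERK list 3 of 21 tested rose and 1 fell, with a median log2 fold change of 0.19. Fgf3, a ligand of the streak and tail bud, had 1267 and 1966 normalised reads at day 4, against 28.6 and 61.2 at day 3 (log2 fold change 5.20 ± 0.44, adjusted p = 0.000543). Fgf10, a ligand of the second heart field and limb, had 1964 and 1945 at day 4, against 79.2 and 111 at day 3 (log2 fold change 4.37 ± 0.49, adjusted p = 0.002). Dusp4, a phosphatase that ERK induces, had 5422 and 5640.2 at day 4, against 1899 and 2142 at day 3 (log2 fold change 1.45 ± 0.16, adjusted p = 0.00195), while Etv5, an ETS factor downstream of FGF, fell, with 5586 and 5874 at day 4, against 9812 and 8612 at day 3 (log2 fold change -0.68, adjusted p = 0.0387). The same pathway thus held targets that moved in opposite directions.

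Of 12 retinoic acid genes tested, 3 rose, with a median log2 fold change of 0.55, among them both an enzyme that makes the acid and one that breaks it down. Cyp26a1, which degrades it, had 10475 and 8383 normalised reads at day 4, against 381 and 966 at day 3 (log2 fold change 3.95 ± 0.41, adjusted p = 0.0015). Aldh1a2, which makes it, had 99.0 and 239 at day 4, against 12.4 and 23.3 at day 3 (log2 fold change 3.10, adjusted p = 0.00836), and the binding protein Crabp1 had 722 and 921 at day 4, against 203 and 166 at day 3 (log2 fold change 2.14, adjusted p = 0.0227). In the Notch list Dll3 and Lfng rose and the ligand Jag2 fell among 18 tested, with a median log2 fold change of 0.86, and Jag2 had 1033 and 986 at day 4, against 1734 and 2126 at day 3 (log2 fold change -0.93, adjusted p = 0.0386). Fgf3, Fgf10, Dusp4 and Cyp26a1 kept their calls with each of the 4 libraries left out in turn. Etv5, Crabp1 and Jag2 missed the threshold whichever of the 4 libraries was left out (adjusted p 0.0874 to 0.327). Aldh1a2 missed the threshold without day 4 replicate 2 or without day 3 replicate 1 (adjusted p 0.113 to 0.124). Over the same omissions the list held 2, 1, 1 and 2 rises for retinoic acid, 1, 1, 1 and 2 for Notch and 3 each time for FGF.

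Genes of the passage from epithelium to mesenchyme rose on the mesenchymal side, 7 of 16 tested with a median log2 fold change of 0.77. Snai1, the zinc finger repressor of E-cadherin, had 3579 and 2891 normalised reads at day 4, against 439 and 549 at day 3 (log2 fold change 2.71 ± 0.37, adjusted p = 0.00497). Cdh2, N-cadherin, had 8314 and 8096 at day 4, against 1117 and 1697 at day 3 (log2 fold change 2.57, adjusted p = 0.0261), and the mesenchymal cadherin Cdh11 had 3135 and 3902 at day 4, against 427 and 768 at day 3 (log2 fold change 2.61, adjusted p = 0.00987). Among the epithelial genes of the list, Cdh1 and Epcam did not pass. None of the list was called lower by limma over all 10 libraries, against 4 lower at an unadjusted p under 0.05, 0 by edgeR and 2 by DESeq2. Other processing choices that kept all 4 libraries called at most 3 lower. Cdh1, E-cadherin, had 17072 and 17118 at day 4, against 23457 and 25686 at day 3 (log2 fold change -0.52 ± 0.16, adjusted p = 0.125), and Epcam had 5416 and 5045 at day 4, against 8457 and 8652 at day 3 (log2 fold change -0.71, adjusted p = 0.052), both lower at day 4 without overlap. With only the libraries of day 4 and day 3, or without day 0, limma called Cdh1 and Epcam lower.

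Vim, vimentin, had 6997 and 9747 normalised reads at day 4, against 1688 and 3443 at day 3 (log2 fold change 1.78, adjusted p = 0.0164), and Zeb1, a repressor like Snai1, had 328 and 586 at day 4, against 41.0 and 87.4 at day 3 (log2 fold change 2.85, adjusted p = 0.00667). Receptors that guide moving mesoderm rose with them, and 5 of the 14 migration genes tested were higher and 1 lower (median log2 fold change 0.98). Aplnr, the apelin receptor, had 7187 and 6828 at day 4, against 126 and 642 at day 3 (log2 fold change 4.62, adjusted p = 0.023), and Cxcr7, another receptor for Cxcl12, had 439.6 and 969 at day 4, against 111 and 128 at day 3 (log2 fold change 2.44, adjusted p = 0.0167). The chemokine moved the other way from its receptors Cxcr4 and Cxcr7: Cxcl12 had 919 and 827 at day 4, against 2606 and 3575 at day 3, and fell (log2 fold change -1.81 ± 0.40, adjusted p = 0.0447). Cdh2 and Cxcl12 missed the threshold whichever of the 4 libraries was left out (adjusted p 0.082 to 0.328). Snai1, Cdh11, Vim and Aplnr missed the threshold without either day 4 library or without day 3 replicate 1 (adjusted p 0.0638 to 0.229). Cxcr7 missed the threshold without day 4 replicate 2 or without day 3 replicate 1 or without day 3 replicate 2 (adjusted p 0.0773 to 0.216). Zeb1 missed the threshold without day 4 replicate 2 or without day 3 replicate 1 (adjusted p 0.0801 to 0.112). With the same omissions the epithelial to mesenchymal list held 2, 1, 1 and 5 rises and the migration list 3, 2, 2 and 3.

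Matrix genes had 8 rises of 20 tested and a median log2 fold change of 1.40. Fn1, fibronectin, the matrix protein on which mesoderm migrates, had 120135 and 109717 normalised reads at day 4, against 9245 and 15982 at day 3 (log2 fold change 3.24 ± 0.24, adjusted p = 0.000299). Its mean ran, from day 0 to day 4, 30838, 30732, 14287, 12614 and 114926, so day 3 was the lowest day and day 4 the highest. Lama1, a laminin of basement membranes, had 1679.9 and 1432 at day 4, against 374 and 604 at day 3 (log2 fold change 1.70, adjusted p = 0.00908). Its mean over days 0 to 4 ran 2304, 328, 407, 489 and 1556, so it was highest in ES cells. The integrin chain Itga5, the fibronectin receptor, had 4822 and 4261 at day 4, against 1361 and 2260.3 at day 3 (log2 fold change 1.37).

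Col4a1 and Col4a2, which encode the chains of the main basement membrane collagen, are transcribed away from each other from one shared promoter. Col4a1 had 6262 and 6464 normalised reads at day 4, against 1488 and 2048 at day 3 (log2 fold change 1.87 ± 0.19, adjusted p = 0.00128), and Col4a2 had 2789 and 3051 at day 4, against 563 and 849 at day 3 (log2 fold change 2.08 ± 0.26, adjusted p = 0.00305). Their promoter windows are shown because the pair rose together: chr8:11312777-11313076 (minus strand) for Col4a1 and chr8:11312555-11312854 (plus strand) for Col4a2, from RefSeq on GRCm38.p6. Capitals mark the 78 bases that both windows hold, once on each strand.
Col4a1: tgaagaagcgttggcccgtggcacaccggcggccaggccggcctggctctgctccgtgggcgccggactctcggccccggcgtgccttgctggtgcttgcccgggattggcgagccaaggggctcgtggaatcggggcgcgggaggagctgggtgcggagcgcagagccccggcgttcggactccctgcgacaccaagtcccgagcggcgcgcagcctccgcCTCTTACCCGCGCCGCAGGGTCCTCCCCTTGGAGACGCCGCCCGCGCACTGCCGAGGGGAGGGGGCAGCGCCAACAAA
Col4a2: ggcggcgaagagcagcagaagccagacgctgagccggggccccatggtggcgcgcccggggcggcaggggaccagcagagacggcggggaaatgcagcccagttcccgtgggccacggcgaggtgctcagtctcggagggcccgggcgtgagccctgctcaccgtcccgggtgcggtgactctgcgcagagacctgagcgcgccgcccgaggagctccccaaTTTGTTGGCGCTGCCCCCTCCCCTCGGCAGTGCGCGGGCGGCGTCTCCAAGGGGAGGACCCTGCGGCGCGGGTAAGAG
The shared bases form the last stretch of each window, up to and past the start of its gene.

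Markers of feeder fibroblasts are given beside the matrix genes, although the line was kept on gelatin. None of the 8 tested of 10 was called by limma, against 6 higher and 1 lower at an unadjusted p under 0.05, 0 by edgeR, and 2 higher and 1 lower by DESeq2. They summed to 1356 and 3113 normalised reads at day 4, against 864 and 1266 at day 3, with a median log2 fold change of 1.63, and their part in the matrix result was not tested. Lum had no read in any of the 4 libraries. Col1a1, the fibrillar collagen chain, had 382 and 1644 at day 4, against 70.6 and 198 at day 3, and did not pass (log2 fold change 2.73, adjusted p = 0.0912). DESeq2 called Col1a1 higher. Fn1 and Col4a1 kept their calls with each of the 4 libraries left out in turn. Lama1 and Itga5 missed the threshold without either day 4 library or without day 3 replicate 1 (adjusted p 0.0923 to 0.294). Col4a2 missed the threshold without day 4 replicate 2 or without day 3 replicate 1 (adjusted p 0.0517 to 0.0657). The matrix list held 3, 2, 2 and 7 rises over the same omissions.

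Hox genes pattern the body from head to tail. By limma over all 10 libraries, some rose in each of the 4 clusters, in the Hoxc cluster Hoxc4 alone. Other processing choices that kept all 4 libraries called 3 to 9 Hox genes higher. Of 39 genes, 24 passed the filter on low counts and 8 rose (Hoxa3, Hoxa13, Hoxb1, Hoxb2, Hoxb3, Hoxc4, Hoxd8 and Hoxd9). A silent gene can pass the filter through its day 4 values alone, so the share is only a description. Hoxb1, at the 3′ end of its cluster, had 886 and 1099 normalised reads at day 4, against 58.2 and 65.5 at day 3 (log2 fold change 3.98, adjusted p = 0.00609). Hoxb2 had 363 and 682 at day 4, against 18.1 and 43.7 at day 3 (log2 fold change 4.09, adjusted p = 0.00417), and Hoxb3 had 354 and 639 at day 4, against 34.3 and 39.3 at day 3 (log2 fold change 3.66 ± 0.41, adjusted p = 0.002). Further 5′, Hoxd9 had 85.8 and 344 at day 4, against 0 and 4.37 at day 3 (log2 fold change 6.22, adjusted p = 0.00683), with one day 4 library several times the other. Hoxb3 kept its call with each of the 4 libraries left out in turn. Hoxb1 missed the threshold without either day 4 library or without day 3 replicate 1 (adjusted p 0.0541 to 0.0958). Hoxb2 and Hoxd9 missed the threshold without day 4 replicate 2 or without day 3 replicate 1 (adjusted p 0.0655 to 0.104). With the same libraries left out 4, 1, 1 and 5 Hox genes were higher.

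Of 13 imprinted genes tested, which are expressed from one parental copy, 4 rose (median log2 fold change 1.18). Igf2, the fetal growth factor expressed from the paternal copy, had 9423 and 25273 normalised reads at day 4, against 381 and 1038 at day 3 (log2 fold change 4.62 ± 0.68, adjusted p = 0.00683). The antisense gene Igf2as was also called, with 456 and 869.7 at day 4, against 11.4 and 32.0 at day 3, and reads of the pair cannot be told apart if strand was not used. Phlda2, a maternally expressed brake on placental growth, had 4185 and 5458 at day 4, against 819 and 634 at day 3 (log2 fold change 2.73 ± 0.25, adjusted p = 0.000709). Peg10, a gene derived from a retrotransposon and needed in placenta, had 39366 and 58064 at day 4, against 7876 and 10582 at day 3 (log2 fold change 2.39, adjusted p = 0.00239), and Peg3 had 18239 and 19879 at day 4, against 3140.4 and 5035 at day 3 (log2 fold change 2.26, adjusted p = 0.00892). Phlda2 kept its call with each of the 4 libraries left out in turn. Peg3 missed the threshold without either day 4 library or without day 3 replicate 1 (adjusted p 0.0714 to 0.126). Igf2 missed the threshold without day 4 replicate 2 or without day 3 replicate 1 (adjusted p 0.101 to 0.108). Peg10 missed the threshold without day 3 replicate 1 (adjusted p 0.0517). The list held 3, 2, 1 and 4 rises over the same omissions.

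Of 12 general pluripotency genes tested, 5 fell, with a median log2 fold change of -0.80. edgeR called 4 of the list lower and DESeq2 6. Pou5f1, the Oct4 factor that holds the pluripotent state, had 19249.6 and 15111 normalised reads at day 4, against 36929 and 29149 at day 3 (log2 fold change -0.94 ± 0.19, adjusted p = 0.0325). Sox2, its partner, had 2210.1 and 3559 at day 4, against 4999 and 6189.6 at day 3 (log2 fold change -0.99 ± 0.22, adjusted p = 0.0477). Utf1, a chromatin factor of ES cells, had 2331 and 2767 at day 4, against 6384 and 6995 at day 3 (log2 fold change -1.40 ± 0.20, adjusted p = 0.00565). All 3 fell without overlap between the days, and all remained readily detected at day 4.

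The neighbours Dppa4 and Dppa2, which encode partners that bind DNA in ES and germ cells, fell together. Dppa4 had 543 and 433 normalised reads at day 4, against 1447 and 891 at day 3 (log2 fold change -1.23, adjusted p = 0.0309), and Dppa2 had 119.6 and 133 at day 4, against 598 and 288 at day 3 (log2 fold change -1.71, adjusted p = 0.0427). Sall4, a zinc finger partner of Pou5f1, had 11733 and 12162 at day 4, against 8326 and 9295 at day 3, and did not pass (log2 fold change 0.44, adjusted p = 0.22), nor did Lin28a, a brake on let-7, with 20046 and 22342 at day 4, against 21917 and 19173 at day 3. Pou5f1 and Sox2 missed the threshold whichever of the 4 libraries was left out (adjusted p 0.0568 to 0.356). Utf1, Dppa4 and Dppa2 missed the threshold without either day 4 library or without day 3 replicate 1 (adjusted p 0.0575 to 0.355). Sox2 also missed it with edgeR on the read counts. Over the same omissions the list held 0, 0, 0 and 3 falls.

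Of 19 naive genes tested, Tbx3 rose and Nr0b1 fell, with a median log2 fold change of -0.65. At an unadjusted p under 0.05, 3 were higher and 8 lower, edgeR called 1 higher and 0 lower, and DESeq2 called 2 higher and 6 lower. Nr0b1, the Dax1 partner of Pou5f1, had 30.5 and 32.6 normalised reads at day 4, against 202 and 93.2 at day 3 (log2 fold change -2.09, adjusted p = 0.0427). Nanog had 455 and 442 at day 4, against 647 and 769 at day 3, lower without overlap, and did not pass (log2 fold change -0.65, adjusted p = 0.289). None of the 12 primed epiblast genes was called by limma over all 10 libraries (median log2 fold change -0.61), against 1 higher and 4 lower at an unadjusted p under 0.05, 0 by edgeR and 1 lower by DESeq2. Other processing choices that kept all 4 libraries called at most 5 lower. Among them, limma called Dnmt3b lower with only the libraries of day 4 and day 3, and without day 0. Otx2, a homeobox factor of the epiblast and head, had 3563 and 3138 at day 4, against 4882 and 5989 at day 3 (log2 fold change -0.69, adjusted p = 0.0631), and Fgf5, the epiblast's FGF ligand, had 3457 and 4528 at day 4, against 4749 and 5568 at day 3 (log2 fold change -0.38, adjusted p = 0.883). Otx2 and Fgf5 lay lower at day 4 without overlap. Nr0b1 missed the threshold without either day 4 library or without day 3 replicate 1 (adjusted p 0.197 to 0.36). Nr0b1 also missed it with edgeR on the read counts.

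The steepest falls among genes of at least 10 CPM were outside the pluripotency lists. Nphs1, nephrin of the kidney filter, had 131 and 68.5 normalised reads at day 4, against 908 and 499.5 at day 3 (log2 fold change -2.82 ± 0.38, adjusted p = 0.00442), and its mean over days 0 to 4 ran 5077, 5491, 1999, 704 and 99.8. Myb, a factor of proliferating progenitors, had 255 and 222 at day 4, against 1104 and 1226 at day 3 (log2 fold change -2.29 ± 0.30, adjusted p = 0.00417), after means of 222, 722, 1212, 1165 and 238 over days 0 to 4. Elavl3, a neuronal RNA binding protein, had 124 and 91.3 at day 4, against 507 and 453 at day 3 (log2 fold change -2.16 ± 0.29, adjusted p = 0.00453). Nphs1 had declined since day 1 while Myb had climbed up to day 2.

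Prom2, a membrane protein of epithelial protrusions, had 109 and 66.3 normalised reads at day 4, against 410.1 and 376 at day 3 (log2 fold change -2.19, adjusted p = 0.0211). Abcg1, a cholesterol exporter, had 383 and 337 at day 4, against 968 and 1740.4 at day 3 (log2 fold change -1.85, adjusted p = 0.0346), and Mcf2 had 109 and 126 at day 4, against 523 and 329 at day 3 (log2 fold change -1.81, adjusted p = 0.0366). Acp5, an acid phosphatase of osteoclasts, had 154 and 76.1 at day 4, against 429 and 425 at day 3 (log2 fold change -1.97, adjusted p = 0.0477), and Cxcl12 completed the 8. Of all 98 falls, the mean was highest at day 0 in 22, at day 1 in 38, at day 2 in 35 and at day 3 in 3, so few of these genes peaked just before they fell. Prom2, Abcg1, Mcf2 and Acp5 missed the threshold whichever of the 4 libraries was left out (adjusted p 0.0686 to 0.42). Nphs1, Myb and Elavl3 missed the threshold without day 4 replicate 2 or without day 3 replicate 1 (adjusted p 0.0585 to 0.0812). Acp5 also missed it with edgeR on the read counts.

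Other fates contributed few calls. Of 18 neural genes tested Sox21 and Irx3 rose, with a median log2 fold change of 0.34. Sox21, an HMG factor of neural progenitors and epiblast, had 119.6 and 204 normalised reads at day 4, against 14.3 and 23.3 at day 3 (log2 fold change 3.03, adjusted p = 0.0405), and Irx3, a homeobox factor of neural plate and mesoderm, had 274 and 285 at day 4, against 45.8 and 108 at day 3 (log2 fold change 1.97, adjusted p = 0.0465). Pax6 and Sox1, the defining factors of neural progenitors, were not called, with 19.8 and 29.4 for Pax6 at day 4, against 52.5 and 72.8 at day 3, and 28.0 and 316 for Sox1 at day 4, against 5.72 and 45.1 at day 3. Of 10 genes of surface ectoderm and amnion tested Gata3 and Krt8 rose (median log2 fold change 0.70), and Krt8, a keratin of simple epithelia, had 9084 and 8963 at day 4, against 1129 and 1972 at day 3 (log2 fold change 2.60, adjusted p = 0.0228). Of 9 germ cell genes Prdm1, also a factor of endoderm and mesoderm, rose, with 449 and 428 at day 4, against 153 and 160.2 at day 3 (log2 fold change 1.48, adjusted p = 0.00952). Means over days 0 to 4 ran 1071, 199, 28.7, 18.8 and 162 for Sox21, and 9090, 543, 574, 1551 and 9023 for Krt8. For Prdm1 they ran 459, 573, 328, 156 and 438. In each gene the ES cell mean was no lower than the day 4 mean, though the day 0 libraries of Sox21 and Krt8 lay several-fold apart. Sox21, Krt8 and Prdm1 missed the threshold whichever of the 4 libraries was left out (adjusted p 0.0513 to 0.356). Irx3 missed the threshold without either day 4 library or without day 3 replicate 1 (adjusted p 0.209 to 0.355). Sox21 and Irx3 also missed it with edgeR on the read counts.

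The series is about p53, and none of the 4 tested genes of the p53 family and its regulators was called by limma (median log2 fold change -0.20), against 1 lower at an unadjusted p under 0.05, 0 by edgeR and 1 lower by DESeq2. Trp53, which encodes p53, had 8076 and 9614 normalised reads at day 4, against 7259 and 8029 at day 3 (log2 fold change 0.21 ± 0.18, adjusted p = 0.717). Trp73, its relative p73, had 161 and 176 at day 4, against 572 and 472 at day 3, lower without overlap, and did not pass (log2 fold change -1.62, adjusted p = 0.0564). Mdm2, the ligase that degrades p53 and is its target, had 2890.5 and 3533 at day 4, against 3598 and 3481 at day 3 (log2 fold change -0.15, adjusted p = 0.923), and Cdkn1a, the p21 inhibitor of the cell cycle, had 2146 and 3069 at day 4, against 2242 and 1513 at day 3 (log2 fold change 0.48, adjusted p = 0.87), with overlap between the days.

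None of 24 p53 targets was called by limma (median log2 fold change -0.31), against 1 lower at an unadjusted p under 0.05, 0 by edgeR and 1 lower by DESeq2. None of 19 proliferation genes was called (median log2 fold change -0.04), against 1 higher at an unadjusted p and 0 by edgeR or DESeq2. Other processing choices that kept all 4 libraries called at most 2 of them higher. The lists of immediate early genes (11 tested), of the unfolded protein and integrated stress response (9 tested) and of contractile genes (9 tested) also held no call by limma or edgeR. At an unadjusted p they held 1 lower, 0 and 5 higher, and DESeq2 called 0, 0 and 2 higher. Of 22 genes of hypoxia and glycolysis 1 fell, Pdk1, a kinase that shuts pyruvate out of mitochondria, with 8558 and 6741 at day 4, against 16408 and 15025 at day 3 (log2 fold change -1.05, adjusted p = 0.0462). That list had a median log2 fold change of -0.27, with 3 of its genes above 0. At an unadjusted p under 0.05, 0 were higher and 4 lower, edgeR called 0, and DESeq2 called 1 lower. Pdk1 missed the threshold whichever of the 4 libraries was left out (adjusted p 0.126 to 0.41). Pdk1 also missed it with edgeR on the read counts.

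The fourth day was set against the third by testing the difference of the 2 steps, (day 4 minus day 3) minus (day 3 minus day 2), in the same fit; the day 3 libraries enter both steps. From day 2 to day 3, 21 genes rose (0.133%) and none was called lower by limma, although 918 were lower at an unadjusted p under 0.05. Those 21 include T, Mixl1, Lhx1, Evx1, Mesp1, Foxa2, Gata6, Cer1 and Cyp26a1. The steps differed in 6 genes, all with the larger step on the fourth day (0.0379%), and at an unadjusted p 532 were larger and 142 smaller. The 6 were Gata4, Nrp1, Fgf3, Kitl, Fn1 and Phlda2. Gata4 changed by -0.18 on the log2 scale on the third day, and its steps differed by 5.85 ± 0.62 (SE, adjusted p = 0.044). Nrp1 changed by 0.08 on the third day, and its steps differed by 6.41 ± 0.83 (adjusted p = 0.0454). Kitl, the ligand of the Kit receptor on blood and germ cells, had 494 and 498 normalised reads at day 4, against 45.8 and 62.6 at day 3, and its steps differed by 3.82 ± 0.49 (adjusted p = 0.0454). The steps differed in 2 genes without day 3 replicate 2 and in 0 without either day 4 library, day 3 replicate 1 or either day 2 library, edgeR called 1, and with the replicate number as a block the count was 0.

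**Figure D4:**
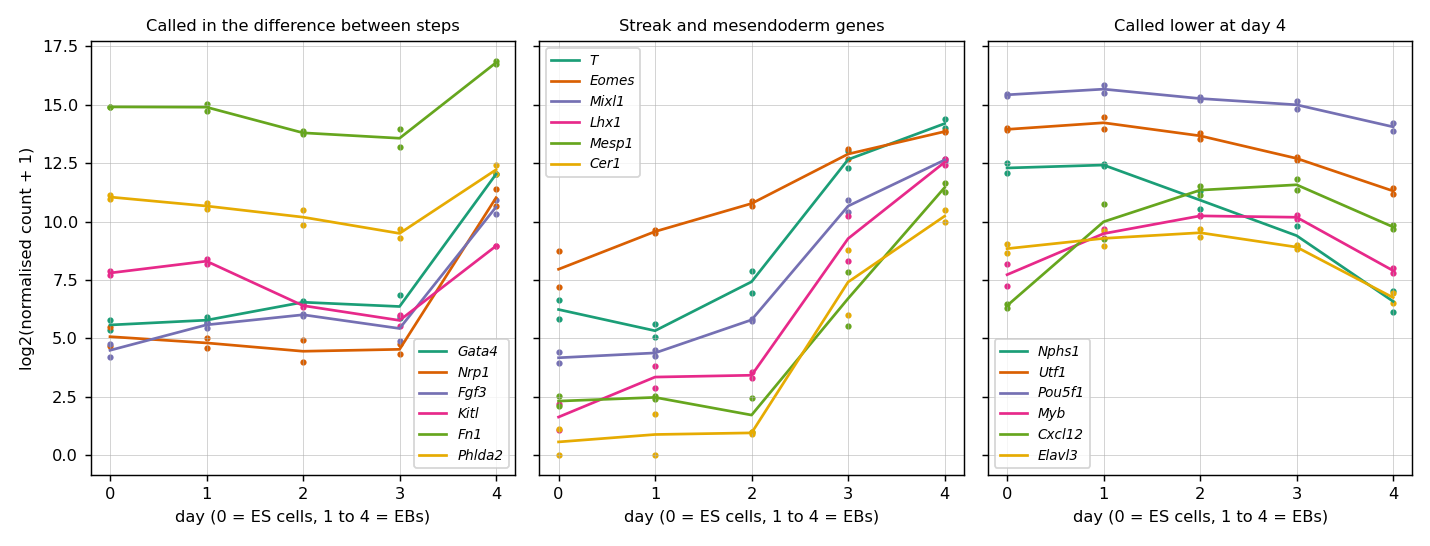
Mean log2 normalised reads plus 1 on days 0 to 4 (horizontal) of the 6 genes whose steps differed (left), 6 streak and mesendoderm genes (middle) and 6 genes called lower (right), with points for single libraries. The left genes stay level or decline from day 2 to day 3 and turn upward on the fourth day, while the means of T and Eomes already climb on the third.

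Promoter letters were counted in the 300-base RefSeq windows of 255 of the 354 genes that rose over 2-fold, 61 of the 82 that fell over 2-fold and 12323 of all genes tested. The GATA motif AGATAAG, on either strand, was present in 4.31% of the rises (11 windows) and 4.92% of the falls (3 windows), against 1.83% of all windows. The rises with it include the adjacent genes Pilra, Pilrb1 and Pilrb2, which may not be independent. The T-box motif AGGTGTG was in 5.88% of the rises and 3.28% of the falls, against 4.66% of all windows. The Tcf/Lef motif CTTTGAT was in 1.96% of the rises and 6.56% of the falls, against 2.56%, the Fox motif TGTTTAC in 4.31% and 1.64%, against 2.46%, and the Smad motif CAGACA in 16.5% and 14.8%, against 16.1%. These shares rest on 1 to 42 promoters a group and were not tested, and none of the 5 motifs contains another. The windows of Fgf3, chr7:144838362-144838661 (plus strand), and Klhl6, chr16:19983000-19983299 (minus strand), are shown as steep rises with GATA letters, which are in capitals (as CTTATCT on the opposite strand in Fgf3).
Fgf3: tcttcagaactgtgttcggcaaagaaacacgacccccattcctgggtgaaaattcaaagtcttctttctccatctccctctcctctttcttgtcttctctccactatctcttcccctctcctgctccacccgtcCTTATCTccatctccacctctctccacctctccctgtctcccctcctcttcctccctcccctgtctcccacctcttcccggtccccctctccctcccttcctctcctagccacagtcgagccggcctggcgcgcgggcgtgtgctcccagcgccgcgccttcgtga
Klhl6: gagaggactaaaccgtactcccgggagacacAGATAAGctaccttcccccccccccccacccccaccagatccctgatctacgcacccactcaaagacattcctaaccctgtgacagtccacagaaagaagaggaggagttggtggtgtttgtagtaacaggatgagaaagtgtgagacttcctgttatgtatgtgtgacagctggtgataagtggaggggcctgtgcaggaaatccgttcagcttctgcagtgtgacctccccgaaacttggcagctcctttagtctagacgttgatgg
The GATA letters begin 116 bases before the Fgf3 start and 219 bases before the Klhl6 start.

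Some called genes lay near each other. Of the tested or listed genes, 14185 could be placed in the RefSeq gene order of GRCm38.p6. In that order 39 adjacent pairs were both called, 29 of them both higher, 3 both lower and 7 with 1 of each. Other genes were skipped and can lie between the members of a pair. Of all genes tested 2.93% were called, and how many such pairs that share alone would give was not worked out. The pairs include related copies such as Pilrb1 and Pilrb2. Pairs that were both higher include Hoxb2 with Hoxb1, Cdh11 with Cdh5, Cyp26c1 with Cyp26a1, Foxf2 with Foxc1 and Tbx3 with Tbx5. Nphs1 and Kirrel2, which encodes another nephrin family protein, were both lower, and Kirrel2 had 21.4 and 19.6 normalised reads at day 4, against 341 and 151 at day 3 (log2 fold change -3.41 ± 0.43, adjusted p = 0.00344). Kirrel2 missed the threshold without day 4 replicate 2 or without day 3 replicate 1 (adjusted p 0.0517 to 0.0548). Reads of overlapping neighbours cannot be told apart without strand.

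The day 4 libraries leaned one way among the genes that rose and the other way among those that fell. Of the 366 rises, 242 were higher in day 4 replicate 2 than in replicate 1, against 8305 of the 15841 genes tested, with a median log2 ratio of replicate 1 to 2 of -0.15 against -0.01 over all genes. Of the 98 falls, 29 were higher in day 4 replicate 2, with a median ratio of 0.18. At day 3 the rises had a median ratio of -0.43 and the falls one of 0.13. Over 2-fold differences between the day 4 libraries occurred in 31 of the 366 rises and 4 of the 98 falls, against 753 of all genes tested. Ier3, an immediate early gene, had 1970.2 and 276 normalised reads at day 4, against 2125 and 2959 at day 3, and was not called (log2 fold change -1.76, adjusted p = 0.258), but was called lower without day 4 replicate 1 (adjusted p = 0.0132). Adm, of the hypoxia list, encodes the vessel peptide adrenomedullin. It had 664 and 137 at day 4, against 695 and 1076 at day 3 (log2 fold change -1.52, adjusted p = 0.426). Bhlhe40, a bHLH repressor, had 5199.6 and 1246 at day 4, against 6810.1 and 7330.0 at day 3. In these 3 genes day 4 replicate 1 stood several-fold above replicate 2.

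**Figure D5:**
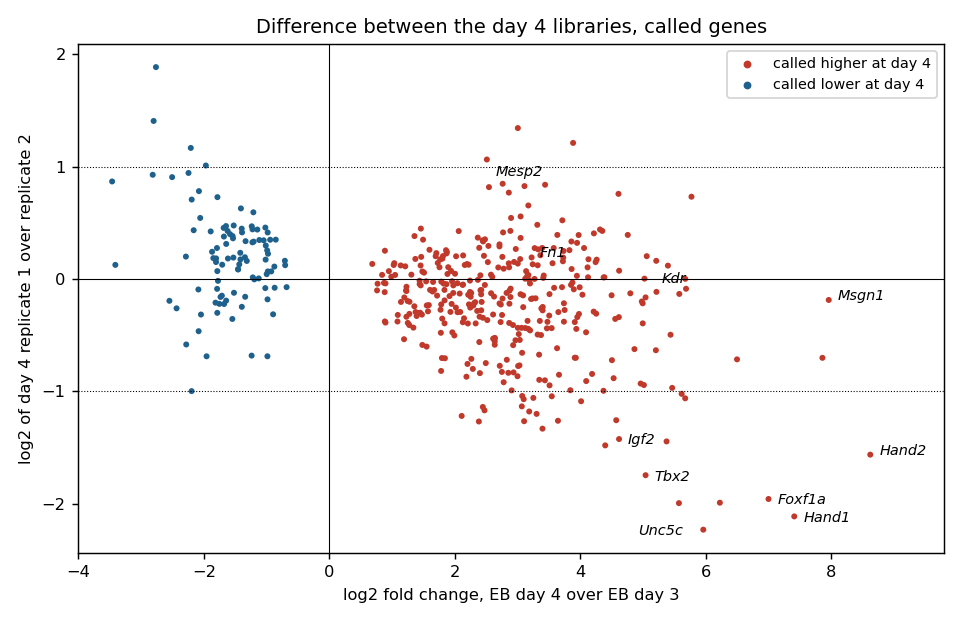
Log2 ratio of day 4 replicate 1 to day 4 replicate 2 (vertical) against the log2 fold change of day 4 over day 3 (horizontal) for the 464 called genes, with dotted lines at a 2-fold difference between the replicates. Most points lie between the lines, and Hand1, Hand2 and Foxf1a are among the rises below them.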

How the data were processed

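RNA of E14Tg2a.IV ES cells and EBs was sequenced with paired ends from TruSeq RNA v2 libraries, per the labels' protocols; how strand was treated in counting is not given in the sources used here. The build mm9 and the tools HTSeq 0.5.4, SAMtools 0.1.19, Bowtie2, FastQC 0.11.3 and DESeq2 are listed, with no role or order, per the submitters' processing notes. The deposited signal was found to be the read count of each of 23284 genes divided by 1 size factor per library: 100% of the values were whole multiples of 1 read within 1e-06. Symbols are the files' own, without positions, and 3207 genes had no read.

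Day 4 was compared with day 3 in R 4.3.3 by limma 3.58.1, its variance prior following an intensity trend, on log2 of the deposited signal plus 1, over all 10 libraries of the time course with day as a factor. Fold changes are on that scale, which understates those of low genes, and SE is limma's. The fit had 5 residual and 4.98 prior degrees of freedom, and 15841 genes passed edgeR's filterByExpr. The threshold was a Benjamini-Hochberg adjusted p under 0.05, two-sided, and adjusted p-values printed without a tool are limma's. The main alternative, edgeR 4.0.16's quasi-likelihood test with TMM on the recovered reads, called 370 genes higher and 84 lower, and DESeq2 1.42.0 was another. The scripts were checked on simulated data. A gene without reads on one day has its fold given as a lower bound, with a floor of 3 reads per library, and such floors cover counting error only, since PCR copies are not independent molecules.

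Named genes were the 8 largest rises and 8 largest falls among called genes with at least 10 CPM on the higher day and no overlap (leaving out predicted genes), up to 3 called members of each gene list by smallest p, a fixed set of markers, and genes with the widest day 4 spread. Other genes named were chosen after their values were seen. Members and lists were chosen with earlier results of these data known. The lists share members, such as Fn1 and Gata3. Lists are described by counts and medians, without a test. Other lines and the ChIP-seq samples were not analysed here.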

Additional observations from a re-analysis of the deposited data

Results flagged for a closer look

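In 6 genes the change of the fourth day differed from that of the day before by the test of the difference itself (limma, Benjamini-Hochberg adjusted p under 0.05), and these results deserve a closer look because all 6 share their day 3 libraries between the 2 steps. The log2 difference of the steps (day 4 minus day 3, less day 3 minus day 2) was 5.85 for Gata4 (SE 0.62, adjusted p = 0.044), 6.41 for Nrp1 (SE 0.83, adjusted p = 0.0454) and 5.79 for Fgf3 (SE 0.75, adjusted p = 0.0454). It was 3.82 for Kitl (SE 0.49, adjusted p = 0.0454), 3.47 for Fn1 (SE 0.41, adjusted p = 0.0454) and 3.42 for Phlda2 (SE 0.43, adjusted p = 0.0454). The step of day 3 over day 2 alone was -0.18 for Gata4, 0.08 for Nrp1, -0.59 for Fgf3, -0.63 for Kitl, -0.23 for Fn1 and -0.70 for Phlda2. All 6 values of the adjusted p lie close to the threshold. Leaving out 1 library of day 4, 3 or 2 reduced the 6 genes to 0, or to 2 without day 3 replicate 2. With the replicate number as a block, 0 genes passed.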

How the results depend on the processing

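The counts of rises, rises over 2-fold, falls and falls over 2-fold were 366, 354, 98 and 82 as reported. They were 670, 565, 356 and 244 with DESeq2, 213, 203, 55 and 40 with a filter at 10 CPM, 896, 701, 462 and 240 with only the libraries of day 4 and day 3, and 803, 645, 504 and 288 without day 0. The cause of these shifts was not tested, except that the filter at 10 CPM tests fewer genes. With 1 library left out they ran from 49 to 212, 49 to 212, 2 to 29 and 2 to 29. edgeR, TMM scaling, a pseudocount of 0.5 or 8, no filter and no intensity trend left all 4 counts within 1.5 times of those reported. Genes whose steps differed numbered 6 with a larger and 0 with a smaller step on the fourth day (142 smaller at an unadjusted p under 0.05). They were 104 and 12 with DESeq2, 95 and 24 with only the days compared, and 49 and 6 without day 0. Those with a larger step were 1 with edgeR, 21 with a pseudocount of 8, 0 with no filter or the filter at 10 CPM, and 0 to 2 with 1 library left out. Of the 106 named and tested genes, the 86 called changed direction in none of the 15 alternatives, and 25 of these calls held in every alternative that tested the gene. Of genes not called, Lefty1 turned to 0.16 on the log2 scale without day 3 replicate 1 (-1.55 to 0.16 with 1 library left out), and Lin28a to -0.050 without day 3 replicate 2, and below 0 without day 4 replicate 2 (-0.050 to 0.14). Of the 464 calls, edgeR kept 426 and DESeq2 434. Some genes not called, among them Axin2, Cer1, Cdh1 and Col1a1, were called by another tool or choice of days.

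With the replicate number as a block, 355 genes were higher, 345 over 2-fold, 100 lower and 81 over 2-fold, and 0 genes differed between the steps. Same-numbered samples did not deviate together in every pair of days: over 10 pairs of days the correlation of deviations, across genes, was -0.19 to 0.35, 3 were over 0.1, and that of day 4 with day 3 was 0.04, so the numbers were not taken to pair the samples.

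Depth and 2 libraries a day limit the comparison. Genes at a few reads on every day of the time course could not be tested. A difference that missed the threshold is not shown to be absent.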

Other observations

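Genes of cell and axon guidance, which steer moving cells as well as growing nerves, were noticed among the rises after their values were seen. Besides Nrp1 and Unc5c, the related co-receptor Nrp2 had 4279 and 3932 normalised reads at day 4, against 363 and 463 at day 3 (log2 fold change 3.32 ± 0.31, limma adjusted p = 0.000709). Plxna4, a semaphorin receptor, had 679 and 607 at day 4, against 11.4 and 23.3 at day 3 (log2 fold change 5.21, adjusted p = 0.00453), and its ligand Sema3a had 213 and 221 at day 4, against 12.4 and 16.0 at day 3 (log2 fold change 3.85, adjusted p = 0.0485). Slit1, a ligand of Robo receptors, had 291 and 377 at day 4, against 21.9 and 45.1 at day 3 (log2 fold change 3.35, adjusted p = 0.00671). The days did not overlap in any of these genes. Nrp2 kept its call with each of the 4 libraries left out in turn. Sema3a missed the threshold whichever of the 4 libraries was left out (adjusted p 0.168 to 0.325). Plxna4 and Slit1 missed the threshold without either day 4 library or without day 3 replicate 1 (adjusted p 0.0525 to 0.111).

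Several genes known from the germ line or meiosis were noticed in the same way among the falls. The germ cell list did not hold them, and of its 9 genes tested 1 rose and 0 were lower by limma, with a median log2 fold change of 0.62. At an unadjusted p under 0.05, 3 of that list were higher and 1 lower, edgeR called 1 higher and 0 lower, and DESeq2 called 3 higher and 1 lower. Mael, of the piRNA pathway, had 240.0 and 173 normalised reads at day 4, against 797 and 514 at day 3 (log2 fold change -1.65, adjusted p = 0.0116). Dmrt1, a factor of testis and germ cells, had 401 and 294 at day 4, against 1063 and 770.4 at day 3 (log2 fold change -1.40, adjusted p = 0.0213), and Hsf2bp, of meiotic recombination, had 152 and 97.8 at day 4, against 411 and 258 at day 3 (log2 fold change -1.41, adjusted p = 0.0396). Outside that group, Slc7a3, a carrier of cationic amino acids, fell, with 1179 and 1509 at day 4, against 3915 and 3883 at day 3 (log2 fold change -1.55 ± 0.18, adjusted p = 0.0021). In each the day 4 values lay below those of day 3. Slc7a3 kept its call with each of the 4 libraries left out in turn. Hsf2bp missed the threshold whichever of the 4 libraries was left out (adjusted p 0.0539 to 0.372). Dmrt1 missed the threshold without either day 4 library or without day 3 replicate 1 (adjusted p 0.0713 to 0.257). Mael missed the threshold without day 4 replicate 2 or without day 3 replicate 1 (adjusted p 0.14 to 0.163). Counts of such groups were not made, since the genes were picked for how they moved.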
